A study of Gallus gallus with 24 samples.

Results

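In chicken abdominal fat, 7 genes of the extracellular matrix were followed: COL5A1 and COL6A3, chains of the interstitial collagens V and VI, the matricellular protein gene POSTN (periostin), FN1 (fibronectin), the small leucine-rich proteoglycan genes DCN (decorin) and LUM (lumican), and COL4A1, a chain of collagen IV in the basement membrane. They are 7 of 6428 named genes and take up 13 of 19200 spots on the array. All 7 were found by the symbol that the platform annotation gives their spots, after row and column of the spot position had been exchanged. The genes were selected on their ratios between the lines in earlier results of these data, mainly the mean ratio over all ages. Their ratios over the ages and at each age are therefore given as a description, with no test.

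The birds were cockerels of 2 broiler lines bred in opposite directions for the weight of the abdominal fat depot: FL, bred fat, and LL, bred lean. RNA came from abdominal adipose tissue at 1, 3, 5, 7, 9 or 11 wk of age, with 4 birds per line and age. Each of 24 spotted cDNA arrays carried 1 FL bird and 1 LL bird of the same age. FL cDNA had the Alexa Fluor 647 dye on 2 arrays per age, replicates 2 and 4, and LL cDNA had it on replicates 1 and 3, the partner dye being Alexa Fluor 555. Both lines were raised alike on a standard broiler protocol, per the labels, so no group is unselected, and selection cannot be told apart from anything else that came to differ between 2 closed lines.

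The deposited value is a log2 ratio for each spot and array, with no intensity beside it, so a level cannot be read from it and the signal over background is unknown. A value of 1 is a doubling. Which line is the numerator was not given in the sources used here. FL is likely, being the line that the sample titles put first, and "above 0" means more of the transcript in the numerator line. Over spots, the mean correlation was 0.213 (-0.181 to 0.614) between arrays with FL in the same dye and -0.170 (-0.578 to 0.243) between arrays with FL in different dyes. The ratios therefore hold a part that alternates with the dyes. A part common to all arrays was estimated beside it, but over all spots it was too small to bring the second correlation above 0. If the deposited ratio is 1 line over the other, the common part is the line difference and the alternating part is dye bias. If it is the 647 over the 555 channel, the alternating part holds the line difference. The values do not settle this, and both parts are given. Each was estimated in limma from 6 age terms and 1 orientation term, which is the ratio with FL in 647 minus the ratio with LL in 647. A ratio is called dye-corrected below once the orientation term has been taken out. The deposited values had at most 6 digits on each array with FL in 555 and up to 10 on each with FL in 647. Any difference in how these arrays were handled cannot be told apart from the dyes.

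Interstitial matrix is the fibrous meshwork between cells. Collagens I and III form its fibrils, collagen V helps to start them and to set their diameter, and decorin and lumican bind the fibril surface. Collagen VI forms beaded filaments around adipocytes, fibronectin is an adhesive glycoprotein on which other matrix proteins assemble, and periostin binds collagen and is made by fibroblasts of remodelling connective tissue. The basement membrane is the thin sheet that wraps each adipocyte and each capillary, and its network of collagen IV is built from COL4A1 and COL4A2 chains together with laminins and nidogens. Fat depots lay down and remodel both kinds of matrix as adipocytes enlarge.

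In the mean over the 6 ages, the 6 interstitial genes all had a ratio above 0 and COL4A1 did not. The order ran from POSTN at 0.52 (SE 0.103, 24 arrays) and COL6A3 at 0.46 (SE 0.108) through COL5A1 at 0.35 (SE 0.0757) to LUM at 0.21 (SE 0.0607), DCN at 0.15 (SE 0.0851) and FN1 at 0.14 (SE 0.0318). COL4A1 stood at -0.044 (SE 0.0557). As folds these were 1.43, 1.38, 1.27, 1.15, 1.11 and 1.10 for the interstitial genes and 0.97 for COL4A1. Neighbours in this order lay within the sum of their SEs of each other for POSTN and COL6A3, for COL6A3 and COL5A1, for LUM and DCN, and for DCN and FN1. These ratios chose the genes. Over all 15027 features limma called 2 in this mean at an adjusted p under 0.05 (0.0133%), and an unadjusted p under 0.05 was found for 9.63%. Neither of the 2 was among the 7 in this fit, but members passed under other settings. With spots kept single, 4 were called, 1 of FN1 among them. Without 5 wk replicate 2, 149 features were called, with POSTN, COL6A3, COL5A1 and FN1 among them. POSTN also passed without 1 wk replicate 2 and without 1 wk replicate 4, and COL5A1 without 7 wk replicate 1. Without the whole age of 5 wk, an omission chosen after seeing the data, 28 were called, POSTN, COL5A1 and LUM among them. That age and its replicate 2 held the lowest dye-corrected means of the 6 interstitial genes (-0.032 and -0.43). Without array weights, and with the median over the spots of a gene, 0 features were called. Since this mean chose the genes, nothing is read from these calls. In bulk tissue, fewer cells of a type and less RNA per cell cannot be told apart.

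POSTN had the largest of the 7 mean ratios. It rests on 1 spot, as do COL6A3, COL5A1, LUM and DCN, so no second spot checks these values. FN1 and COL4A1 are averages of 6 and 2 spots. With spots kept single, the FN1 spot in block 1 stood at 0.526 (SE 0.0727) and the POSTN spot at 0.521 (SE 0.102). The values of POSTN on replicates 1 to 4 were 0.48, -0.58, 0.69 and 1.77 at 1 wk, and 0.31, 0.43, 0.92 and 0.37 at 3 wk. At 5 wk they were -0.39, -0.59, 0.61 and 0.59, and at 7 wk 0.15, -0.04, 0.88 and 0.004. At 9 wk they were 0.90, 0.79, 0.08 and 1.08, and at 11 wk 1.10, 1.05, 1.03 and 0.25. The ratio was above 0 on 20 of 24 arrays. Its lowest values fell at 1 and 5 wk, in both dye orientations at 5 wk, and all 4 arrays of 3 wk, 9 wk and 11 wk were above 0. With FL in 647 the 12 arrays ran from -0.59 through a median of 0.40 to 1.77, and with LL in 647 from -0.39 through 0.65 to 1.10, so the orientations overlapped almost fully.

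COL6A3, whose product is the longest chain of collagen VI and the source of the peptide endotrophin in mammals, had a similar spread. Its values were 0.41, -0.39, -0.17 and 1.43 at 1 wk, 0.58, 1.58, 0.75 and 0.50 at 3 wk, and 0.64, -0.9996, 0.58 and 0.59 at 5 wk. They were 0.55, 0.43, 0.32 and 0.03 at 7 wk, 1.34, -0.25, 0.07 and 0.55 at 9 wk, and 0.83, 0.39, 0.27 and 0.33 at 11 wk. It was above 0 on 20 of 24 arrays, and its 4 values below 0 fell at 1, 5 and 9 wk. The medians were 0.41 with FL in 647 and 0.57 with LL in 647, and the orientations overlapped. It was highest on 3 wk replicate 2 and 1 wk replicate 4, and on 5 wk replicate 2 it reached its lowest value.

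COL5A1 was above 0 on 19 of 24 arrays, from -0.83 to 1.02. With FL in 647 its median was 0.23 (-0.83 to 0.77), and with LL in 647 it was 0.53 (-0.32 to 1.02). Its values at 3 wk were 0.84, 0.38, 0.85 and 0.43, and those at 5 wk were -0.32, -0.83, 0.95 and 0.02. The 3 wk arrays were all above 0 and close together, while 5 wk held both its lowest and its second highest value.

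**Figure D1:**
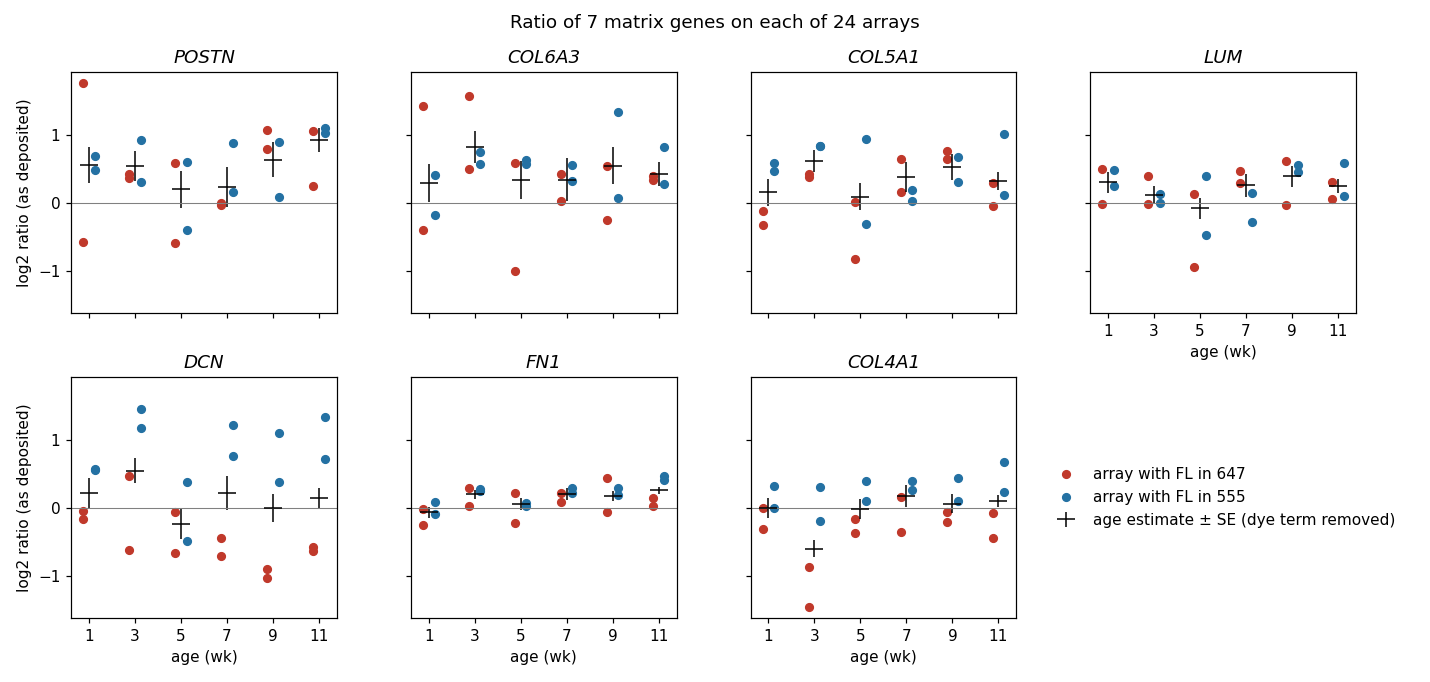
Log2 ratio as deposited (y axis) of each of the 7 genes on 24 arrays by age in weeks (x axis); points are arrays, red with FL in the 647 channel and blue with FL in the 555 channel, and black crosses are the estimate of each age ± SE with the dye term removed. POSTN, COL6A3 and COL5A1 lie mostly above 0 in both colours, whereas in DCN and COL4A1 the blue points lie above the red ones at nearly every age.

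The 2 proteoglycan genes differed in how they depended on the dyes. LUM was above 0 on 18 of 24 arrays, with a median of 0.22 with FL in 647 (-0.94 to 0.61) and of 0.20 with LL in 647 (-0.47 to 0.58). Its orientation term was -0.054 (adjusted p 0.747 in limma). DCN was above 0 on 12 of 24 arrays, with a median of -0.60 with FL in 647 (-1.04 to 0.47) and of 0.75 with LL in 647 (-0.49 to 1.46). Only 1 of the 12 arrays with FL in 647 lay above 0, and 11 of the 12 with LL in 647 did. Its values at 9 wk were 1.11, -1.04, 0.39 and -0.90, and at 11 wk 1.35, -0.64, 0.72 and -0.57, so the sign followed the orientation on all 8 arrays. At 5 wk they were -0.49, -0.06, 0.39 and -0.67, and at 3 wk 1.18, 0.47, 1.46 and -0.63, where 3 wk replicate 2 and 5 wk replicate 1 went against that pattern. DCN and LUM lie next to each other on chromosome 1 in RefSeq's genes for the assembly bGalGal1.mat.broiler.GRCg7b, with KERA and EPYC beside LUM, and their dye-corrected ratios correlated at r 0.12 over 24 arrays.

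The mean of DCN over the ages therefore averaged values on opposite sides of 0. It was -0.45 ± 0.42 (SD, n = 12) with FL in 647 and 0.77 ± 0.55 (SD, n = 12) with LL in 647. Without 9 wk replicate 1 the mean over ages fell from 0.15 to 0.095. Of the 6 interstitial genes, DCN was the one whose mean was under 2 times its SE.

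FN1 was printed as 6 spots of different cDNA clones, and they did not behave alike. The spots in blocks 1 and 13 of the array stood at 0.53 (SE 0.0727, above 0 on 19 of 24 arrays) and 0.35 (SE 0.0743, 20 of 24). The other 4 lay between -0.055 and 0.019, with blocks 23, 24, 43 and 46 above 0 on 10, 7, 14 and 14 arrays. The block 1 spot ran from -0.79 through a median of 0.64 to 1.59 over the arrays, and the block 46 spot only from -0.21 through 0.009 to 0.21. The first pair of spots lay above the mean of the other 4 on 20 of 24 arrays.

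Blocks 1 and 13 also moved together between arrays. Their ratios correlated at r 0.85 over 24 arrays and at 0.81 with the dye term removed. The other 14 pairs of FN1 spots ranged from -0.44 to 0.66, and from -0.23 to 0.37 with the dye term removed. The highest of these as deposited was blocks 23 and 43, at 0.66, or 0.35 with the dye term removed. These correlations share arrays and birds and are a description. At 11 wk block 1 gave 1.09, 0.50, 1.59 and -0.03 and block 13 gave 1.30, 0.14, 0.55 and 0.12. At 3 wk they gave 1.21, 0.91, 1.17 and 0.17 against 1.27, 0.61, 0.75 and 0.09. In both blocks replicate 4 was the lowest of its age. The average of 0.14 for FN1 is thus a mean over spots that did not behave alike. With the median over its spots in place of the mean, FN1 stood at 0.068. Whether the 6 clones match different stretches or transcripts of FN1 was not tested.

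**Figure D2:**
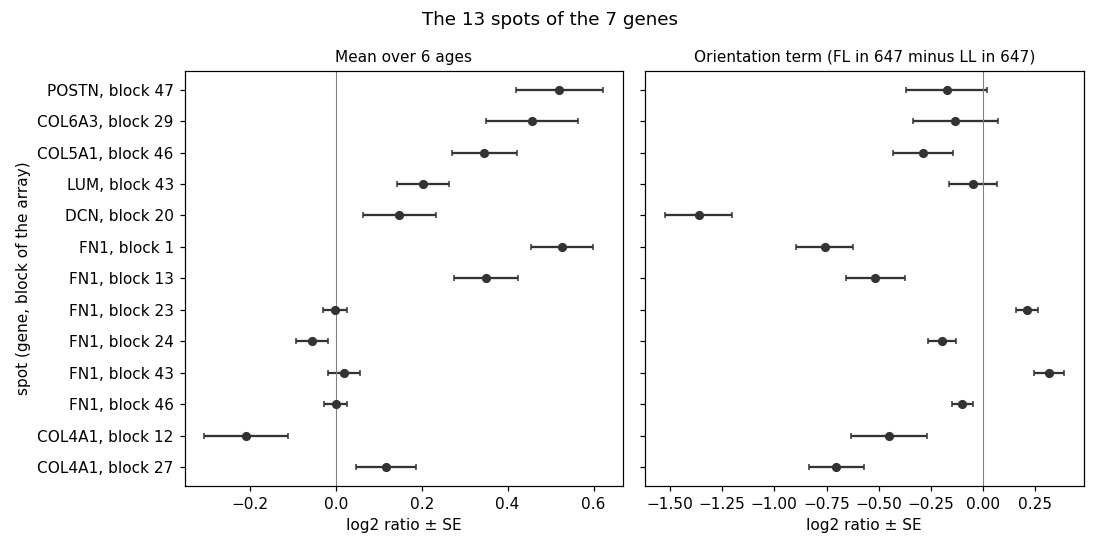
Mean over 6 ages (left) and orientation term (right) of each of the 13 spots of the 7 genes, as log2 ratio ± SE on the x axis; the y axis names gene and block. The FN1 spots in blocks 1 and 13 stand at 0.53 and 0.35 and the other 4 near 0, and the DCN spot has the largest orientation term.

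COL4A1, the basement membrane gene, was the exception in the mean over ages. It was above 0 on 11 of 24 arrays, with a median of -0.26 with FL in 647 (-1.46 to 0.16) and of 0.29 with LL in 647 (-0.19 to 0.68). At 3 wk its values were 0.30, -1.46, -0.19 and -0.88, and at 1 wk 0.32, -0.30, -0.01 and -0.01. At 5 wk they were 0.40, -0.37, 0.10 and -0.17, and at 11 wk 0.68, -0.07, 0.23 and -0.44. The lowest values came from arrays with FL in 647, and those 2 arrays of 3 wk were the lowest of all. Without 3 wk replicate 2 the mean over ages moved from -0.044 to -0.018.

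Its 2 spots lay on either side of 0. The spot in block 12 stood at -0.21 (SE 0.0967) and that in block 27 at 0.12 (SE 0.0691), and block 27 was above block 12 on 15 of 24 arrays. Block 12 was at -2.48 on 3 wk replicate 2, at -1.13 on 3 wk replicate 4 and at -0.83 on 11 wk replicate 4, and no other value of it was below -0.24. The plain mean of block 12 over arrays was -0.21 and became -0.12 without 3 wk replicate 2. The spots correlated at r 0.40 over 24 arrays and at 0.17 with the dye term removed. COL4A2, the neighbour of COL4A1 on chromosome 1 and its partner in the collagen IV protomer, had a mean over ages of 0.12 (SE 0.0418, above 0 on 16 of 24 arrays), on the other side of 0 from COL4A1.

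Between arrays, the dye-corrected ratios of the interstitial genes all correlated above 0, with no background of other gene pairs taken. Over 24 arrays their 15 pairs correlated at r 0.11 to 0.68, with a median of 0.37. The pairs with DCN reached only 0.11 to 0.29. The closest pairs were COL5A1 with LUM at 0.68, POSTN with LUM at 0.59 and COL6A3 with POSTN at 0.54. COL4A1 correlated with the 6 at -0.28 to 0.15, with a median of -0.064. All 6 interstitial genes were above 0 at once on 10 arrays after dye correction, and their mean was above 0 on 21 arrays and above COL4A1 on 19. COL4A1 itself was above 0 on 12. The genes were selected mainly on the mean of these ratios, so the counts are a description and nothing is read from them. The genes of an array share its birds, its labelling and its normalization.

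The question whether the line difference changed between 1 and 11 wk does not use the mean over ages, and it was tested. The genes were selected mainly on that mean. Whether ratios at single ages also had a part in the selection is not known here, so the p values of the 7 carry that limit. None of the 7 genes passed limma's F-test of equality of the 6 ages (adjusted p 1.0 for each), and limma called 0 of 15027 features (0%), with 308 at an unadjusted p under 0.05 (2.05%). The smallest unadjusted p values among the 7 were 0.00717 for COL4A1 and 0.0519 for FN1, and the other 5 ran from 0.241 to 0.711. For a linear trend over the weeks the adjusted p was 0.9995 for each of the 7. The largest slopes were 0.0389 per wk for COL4A1 (SE 0.0150, unadjusted p 0.0171) and 0.0310 per wk for POSTN (SE 0.0277, unadjusted p 0.276). FN1 had a slope of 0.0243 per wk (SE 0.00858, unadjusted p 0.0100). With spots kept single, its spot in block 1 rose more steeply, at 0.0694 per wk (SE 0.0196, adjusted p 0.9997 in limma). Its other spots had slopes from 0.0078 to 0.032 per wk. The F-test over ages gave the block 1 spot an unadjusted p of 0.00283, and it was not called. That spot was picked after its values were seen. Over all features limma called 0 trends (0%), with 428 at an unadjusted p under 0.05 (2.85%: 1.31% rising and 1.54% falling). With 4 arrays per age, a change with age was not detectable in any of the 7 genes, which does not show that there was none.

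The estimates at each age are given as a description. For the 6 interstitial genes together, the mean dye-corrected ratio was 0.26 ± 0.34 (SD, n = 4 arrays) at 1 wk, 0.49 ± 0.22 at 3 wk, -0.032 ± 0.41 at 5 wk, 0.24 ± 0.15 at 7 wk, 0.37 ± 0.28 at 9 wk and 0.40 ± 0.23 at 11 wk. Of the 24 values of 6 genes on 4 arrays, 16, 23, 12, 21, 18 and 23 were above 0 at the successive ages. The lowest age was 5 wk, where replicates 1 and 2 averaged -0.34 and -0.43 and replicates 3 and 4 averaged 0.31 and 0.33. The arrays of an age were all above 0 at 3 wk (0.30 to 0.78), 7 wk (0.057 to 0.38), 9 wk (0.084 to 0.61) and 11 wk (0.19 to 0.71).

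Single genes peaked at different ages. POSTN had its highest estimate at 11 wk (0.93, SE 0.175), and its lowest at 5 wk (0.20, SE 0.273). COL6A3 and COL5A1 were highest at 3 wk, at 0.82 (SE 0.232) and 0.62 (SE 0.163), as was DCN at 0.55 (SE 0.183). LUM was highest at 9 wk (0.39, SE 0.151) and at -0.08 (SE 0.161) at 5 wk. FN1 was at -0.063 (SE 0.0831) at 1 wk and at 0.26 (SE 0.0542) at 11 wk. COL4A1 was lowest at 3 wk, at -0.60 (SE 0.120), when COL6A3, COL5A1 and DCN were highest, and between -0.0084 and 0.18 at the ages from 5 wk on. Its dye-corrected ratios on the 3 wk arrays ran from -1.17 to 0.014 (SD 0.49, n = 4). With spots kept single, its 3 wk estimate was -0.88 in block 12 and -0.31 in block 27. Over all features limma called 112 at 3 wk (0.745%) and 0 at each of the other 5 ages (0%).

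**Figure D3:**
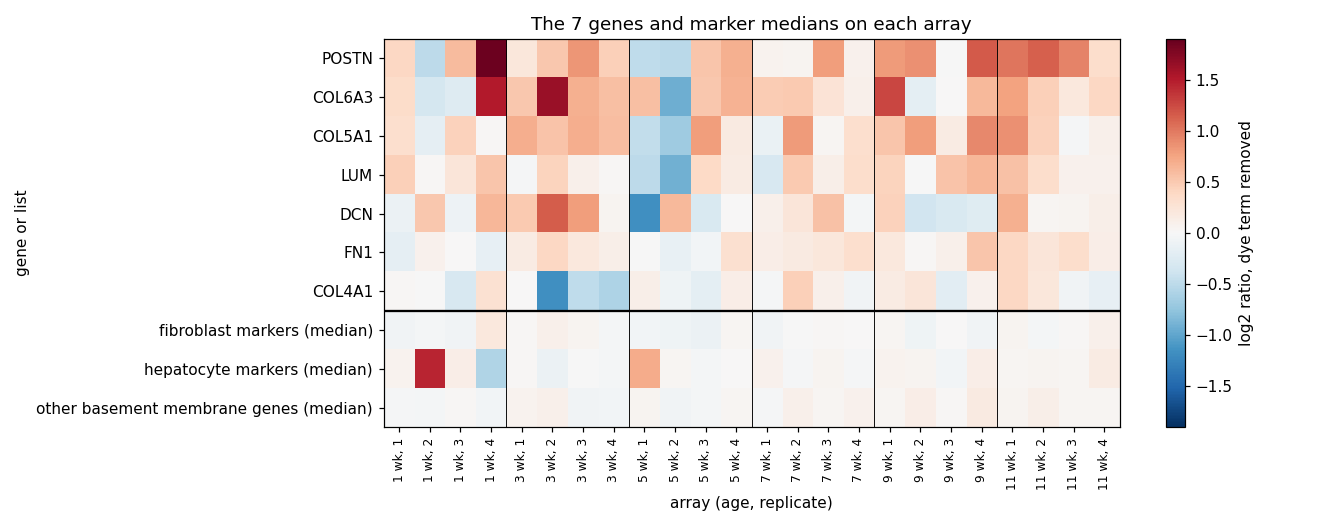
Dye-corrected log2 ratio (colour) of the 7 genes, and below the black line the median of fibroblast markers, hepatocyte markers and other basement membrane genes, on each of 24 arrays (x axis, age and replicate). POSTN, COL5A1 and LUM are blue on 5 wk replicates 1 and 2, with COL6A3 red on the first and DCN red on the second. COL4A1 is blue on 3 wk replicates 2, 3 and 4 and near 0 on replicate 1, and the hepatocyte row is dark on 1 wk replicate 2 and 5 wk replicate 1.

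Marker genes of other cell types moved with some of these arrays. Hepatocyte markers, such as secreted liver plasma proteins, had a median of 1.45 on 1 wk replicate 2 and of 0.70 on 5 wk replicate 1, against -0.57 to 0.16 on the other arrays. Of the 14 measured, 12 had a mean over ages above 0, with a median of 0.082. The 6 interstitial genes averaged -0.065 and -0.34 on those arrays, and over 24 arrays the hepatocyte median correlated with the interstitial mean at r -0.51. The 5 wk replicate 2 array, where the interstitial mean was lowest, had a hepatocyte median of 0.037. Without the 2 arrays with high liver genes the means over ages were 0.57 for POSTN, 0.45 for COL6A3, 0.38 for COL5A1, 0.23 for LUM, 0.17 for DCN, 0.14 for FN1 and -0.050 for COL4A1, each within 1 SE of its value over all arrays.

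Fibroblast markers had a median of 0.015 in the mean over ages, with 4 of 8 measured above 0, and their array medians ran only from -0.11 to 0.20. Those medians correlated with the interstitial mean at r 0.58 over 24 arrays. This r and that of the hepatocyte list were the largest in size of all the cell lists. The other lists ran from -0.26 (erythrocyte) through 0.32 (macrophage) to 0.38 (skeletal muscle). MFAP5 and DDR2 of the fibroblast list are also in the matrix lists. For the matrix lists without the 7, r with the interstitial mean reached 0.66 in the adhesive, matricellular and elastic fibre proteins. It was 0.27 in the basement membrane list and 0.21 in the other interstitial collagens. Adipocyte markers had a median of 0.019 (4 of 7 above 0) and skeletal muscle markers of -0.10 (3 of 8 above 0). The medians of the smooth muscle, endothelium, macrophage, leukocyte, erythrocyte, mesothelium and nerve lists lay between -0.056 and 0.034. The part of any of these cells in the matrix ratios was not tested, and ratios without levels do not show how much of a marker the tissue held.

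The part of the ratio that alternates with the dyes was tested for the 7 genes, since the mean over ages does not use it. The selection of the genes rested mainly on that mean, and whether the alternating part also entered it is not known here. Limma called 3 of the 7, all with lower ratios when FL was in 647: DCN at -1.35 (SE 0.163, adjusted p 6.78e-06), COL4A1 at -0.58 (SE 0.106, adjusted p 0.000400) and FN1 at -0.17 (SE 0.0609, adjusted p 0.0340). Of all 15027 features 33.1% were called, 15.3% higher and 17.8% lower with FL in 647. The 3 of 7 thus stand beside 33.1% in both directions and 17.8% in their own. With so few genes nothing is read from that count. The terms of all 7 were below 0, as were those of 51.9% of all features. COL5A1 at -0.30 (adjusted p 0.116), POSTN at -0.17 (adjusted p 0.530) and COL6A3 at -0.13 (adjusted p 0.650) were not called. None of the 7 had orientations that did not overlap, which 1.02% of all features had.

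Single spots carried the FN1 term unequally. Blocks 1 and 13 had orientation terms of -0.76 and -0.52, blocks 23 and 43 of 0.21 and 0.31, and blocks 24 and 46 of -0.20 and -0.099. The call for FN1 as a mean of spots was lost without array weights (adjusted p 0.146), with arrays scaled to 1 spread (adjusted p 0.0630), with the median over spots (adjusted p 0.976) and on 7 of 24 omissions of 1 array, among them each of the 4 arrays of 11 wk. In COL4A1 both spots had a negative term, -0.45 in block 12 and -0.70 in block 27.

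If the deposited ratios were the 647 over the 555 channel, turning each ratio by its dyes gives FL over LL, and the picture of the matrix changes. The turned mean is then the line difference, and the genes were selected on ratios between the lines. Its adjusted p values for the 7 are therefore given as a description. DCN was then at -0.62 (SE 0.0795, adjusted p 7.29e-06 in limma), 1.54-fold lower in FL. COL4A1 was at -0.31 (SE 0.0643, adjusted p 0.000895), 1.24-fold lower. COL5A1 at -0.16 (adjusted p 0.0912), COL6A3 at -0.092 (adjusted p 0.510), POSTN at -0.11 (adjusted p 0.482), FN1 at -0.061 (adjusted p 0.198) and LUM at -0.037 (adjusted p 0.657) lay below 0 and were not called. Of all features 37.2% were called under this reading, so 2 of 7 is no more than the share of all features. On this reading, too, none of the 7 changed with age (adjusted p 0.385 to 0.945), against 5.88% of all features, and none had a linear trend, against 2.71%. Of the interstitial genes, DCN had the largest turned mean in size, followed by COL5A1, POSTN and COL6A3. COL5A1, POSTN and COL6A3 also had the largest common part. The turned means of POSTN (SE 0.112) and COL6A3 (SE 0.103) lay within 1 SE of 0.

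**Figure D4:**
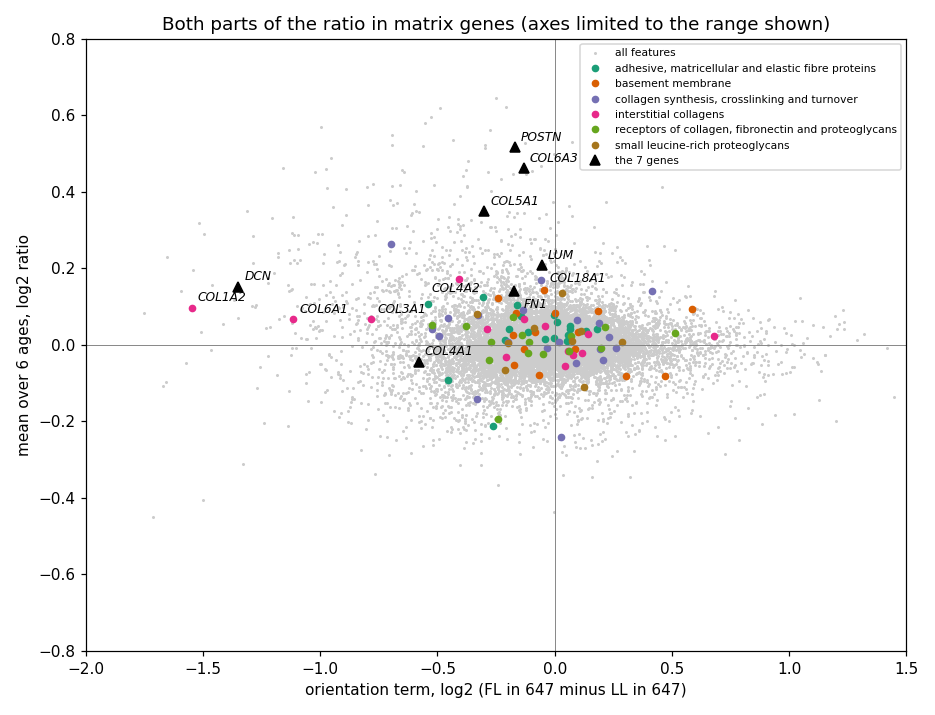
Orientation term (x axis, log2, FL in 647 minus LL in 647) against the mean over 6 ages (y axis, log2 ratio) for all features (grey), for measured genes of the 6 matrix lists (colours) and for the 7 genes (triangles). POSTN, COL6A3 and COL5A1 stand high, with orientation terms of -0.17, -0.13 and -0.30. DCN lies far left next to COL1A2 with a mean near 0.15, and most other matrix genes lie near the middle of the grey cloud.

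The rest of the matrix was described from 6 lists of genes. Over 92 measured genes of these lists other than the 7, the median of the mean over ages was 0.028, and 64 lay above 0. Over all 15027 features the median was 0.0018, and 51.5% lay above 0. None of the 92 was called (0.0133% of all features were), and at an unadjusted p under 0.05 there were 9 above and 4 below 0, or 9.8% and 4.3%, against 5.28% and 4.35% of all features. POSTN, COL6A3 and COL5A1 lay above all 92, the highest of which was LOXL1, a crosslinking enzyme of matrix fibres, at 0.26. That is a description of how the set was chosen.

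Among the interstitial collagens besides COL5A1 and COL6A3, 9 of 14 lay above 0, with a median of 0.036. COL5A2, which forms the collagen V trimer with COL5A1, stood at 0.068 (SE 0.0425, above 0 on 13 of 24 arrays), beside 0.35 for its partner. COL9A2, a chain of a cartilage collagen, had the smallest p on the other side, at -0.027 (SE 0.0281). COL6A1 and COL6A2, the partner chains of COL6A3, stood at 0.068 (SE 0.0747) and 0.042 (SE 0.0675), and the main fibril chains COL1A1, COL1A2 and COL3A1 at -0.031 (SE 0.0558), 0.098 (SE 0.0937) and 0.067 (SE 0.0883). These 5 were chosen as partners or main fibril chains after their values were seen. COL5A2, COL6A1 and COL6A2 all lay below COL5A1 and COL6A3. However, COL5A1 and COL6A3 were selected mainly on this mean, and their partner chains were not. Such a selection can by itself set these gaps, so nothing is read from them.

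In the basement membrane list 9 of 15 genes besides COL4A1 lay above 0, with a median of 0.033. COL18A1, the precursor of endostatin, stood at 0.14 (SE 0.0335, above 0 on 19 of 24 arrays), and COL4A5 at -0.081 (SE 0.0319, 10 of 24). In the small leucine-rich proteoglycan list 7 of 9 besides DCN and LUM lay above 0 with a median of 0.011, CHAD (chondroadherin) at 0.14 (SE 0.0543) and EPYC (epiphycan) at -0.11 (SE 0.0557). Of the adhesive, matricellular and elastic fibre proteins 17 of 19 lay above 0 with a median of 0.041. FBN1, the fibrillin of microfibrils, stood at 0.12 (SE 0.0399, 17 of 24 arrays) and FBLN7, a fibulin, at -0.21 (SE 0.0736, 10 of 24).

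Of the genes that make and turn over collagen 13 of 20 lay above 0, with a median of 0.022. P4HA2, a prolyl hydroxylase of collagen, stood at 0.17 (SE 0.0503, 19 of 24 arrays), and COLGALT1, which adds galactose to collagen, at -0.24 (SE 0.0869, 7 of 24). Of the receptors 9 of 15 lay above 0, with a median of 0.0086. SDC3, a syndecan, stood at 0.050 (SE 0.0255) and EGFR, which decorin binds in mammals, at -0.19 (SE 0.140). In none of the 6 lists was a gene called in the mean over ages, in the trend or in the change with age.

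In the alternating part, COL1A2, COL6A1 and COL3A1 had the largest terms of the 92 genes. Limma called 13 higher and 21 lower with FL in 647, 14.1% and 22.8%, against 15.3% and 17.8% of all features. Lower ones included COL1A2 at -1.55 (adjusted p 4.44e-06), COL6A1 at -1.12 (adjusted p 1.22e-05) and COL3A1 at -0.78 (adjusted p 0.00151), beside DCN at -1.35. SPARC, a collagen-binding matricellular protein, was at -0.54 (adjusted p 0.00414), SERPINH1, the collagen chaperone, at -0.52 (adjusted p 0.000198), and LOXL1 at -0.70 (adjusted p 0.00217). SERPINH1 and LOXL1 belong to the list of collagen synthesis, crosslinking and turnover, where 6 of 20 were lower and 5 higher. Among the higher was ADAMTS14 at 0.42 (adjusted p 0.00575). Of the receptors 4 of 15 were lower and 2 higher, with ITGB1 at 0.52 (adjusted p 0.00296). COL1A1, the partner of COL1A2, was at -0.21 (adjusted p 0.135). The highest was COL22A1, another collagen of the interstitial list, at 0.68 (adjusted p 0.00190). Of the basement membrane list 3 of 15 were higher, LAMB1 (a laminin) at 0.59 (adjusted p 2.03e-05), AGRN (agrin) at 0.47 (adjusted p 1.37e-05) and COL4A5 at 0.31 (adjusted p 0.000816). In that list 2 were lower, COL4A2 at -0.24 (adjusted p 0.0257) and COL4A6 at -0.18 (adjusted p 0.0297). Among the fibroblast markers 4 of 8 were lower, led by TWIST1 at -0.83 and VIM at -0.59, and 0 were higher. This was not particular to fibroblast markers. Lower were also 4 of 5 leukocyte, 3 of 7 adipocyte, 2 of 9 macrophage and 1 of 4 mesothelium markers, with 0 higher. The other way went 2 of 14 hepatocyte, 1 of 8 smooth muscle and 1 of 4 nerve markers, with 0 lower. The remaining lists had calls on both sides. Apart from COL4A5, the genes of this paragraph were picked after their values were seen.

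The genes most like each of the 7 were sought among 6401 named features by Pearson's r of dye-corrected ratios over 24 arrays, and are given as a description. COL6A3 was closest to HACD2 (0.87), BUB3 (0.83) and GSN (0.82), COL5A1 to SIN3A (0.81), CNN3 (0.77) and MTSS1 (0.77), and LUM to BNIP2 (0.81), FKBP4 (0.75) and EIF3A (0.75). POSTN was closest to FXYD6 (0.71), STK39 (0.68) and DKC1 (0.68). DCN was closest to TSNAX (0.83), POU1F1 (0.80) and EIF3L (0.80), and COL4A1 to SLC20A1 (0.77), TMCO7 (0.75) and PHF2 (0.73). FN1 was closest to HEBP2 (0.68), DGKD (0.66) and NID2 (0.66), a nidogen of the basement membrane. Besides NID2, no gene of the 6 matrix lists was among these 21, and the set's own pairs reached at most 0.68.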

How the data were processed

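Each of the 24 arrays gave 1 log2 ratio per spot, as deposited by the authors, and base 2 was taken from the usual output of limma. Limma 3.4.5 and R 2.11.1 were used upstream, per the submitters' processing notes. Background correction, normalization, filters and the ratio's sign are not given in the sources used here. Spots were named from the platform annotation with row and column exchanged: over 4745 pairs of spots of 1 gene, the mean rank correlation was 0.0525 (above 0 on 23 of 24 arrays), and 0.0001 with names as given. Of 10601 named spots, 98.6% were in the RefSeq table, and 8599 spots had no symbol. The 123 spots of 2 control clones were left out, and the spots of a symbol were averaged.

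Limma 3.58.1 in R 4.3.3, with statmod 1.5.0, fitted 15027 features on 6 age terms, an orientation term, array weights (0.399 to 3.32) and robust eBayes, with Benjamini-Hochberg adjustment over all features and a threshold of 0.05. The 160 spots without a value on 1 wk replicate 4 were left missing. Array medians lay between -0.056 and 0.019. The fit was also run on data simulated from the same model, which checks the code and not the sign or the dye reading of the ratios. Replicates are different birds, per the design text, and their number sets the precision. The genes, lists and tests were chosen with earlier results of these data known. Named besides the 7 were, per list, the gene with the smallest p on each side of 0, and for each of the 7 its 3 most correlated genes; other genes were picked after their values were seen. The alternatives were other names, spots, weights, scalings, terms and omissions, and the omission of 5 wk was chosen after seeing the data.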

Additional observations from a re-analysis of the deposited data

Results flagged for a closer look

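In 4 of the 42 groups of 4 arrays (7 genes at 6 ages) a single array stood apart from the other 3 by Dixon's test on the dye-corrected ratio, where chance flags about 1 in 20 groups. COL6A3 was at 1.65 on 3 wk replicate 2, against 0.51 to 0.68 on the other 3 arrays of that age. At 5 wk COL6A3 was at -0.93 on replicate 2, against 0.51 to 0.65 on the others. POSTN was at 0.80 on 7 wk replicate 3, against 0.049 to 0.089. DCN was at 0.67 on 11 wk replicate 1, against 0.036 to 0.10. The first and the second of these are replicates with FL in 647, and the other two have LL in 647.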

How the results depend on the processing

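The mean over ages of POSTN, COL6A3, COL5A1, LUM and FN1 stayed above 0 in every omission of 1 array. This also held in every other setting run except the ratios turned by the dyes and the names as given. Names as given belong to other spots, except for COL5A1 (0.35). They gave -0.018 for COL6A3, -0.029 for POSTN, 0.024 for LUM and 0.026 for FN1. COL5A1 keeps its spot when row and column are exchanged. DCN was -0.45 with FL in 647 alone and 0.77 with LL in 647 alone, and COL4A1 -0.35 and 0.25. Counts called in the mean over ages, 2 as reported, were 5587 with ratios turned by the dyes, 0 with names as given, 4 with single spots, 0 with the median over spots, 0 without array weights, 1 without the orientation term, 0 without the 2 arrays with high liver genes, 28 without 5 wk, and 0 to 149 with 1 array left out (149 without 5 wk replicate 2). Counts over single ages, 112 as reported, were 7425 turned, 219 with single spots, 1 without weights, 1 without the orientation term, 4 with arrays scaled, 180 on features with all values, 244 without the liver-high arrays, 264 without 5 wk, and 0 to 890 with 1 array left out. Turned, 884 features changed with age and 407 had a trend; with 1 array left out both counts were 0 to 0, and the orientation term's was 4255 to 5036. Turned list medians were -0.081 for interstitial collagens, -0.046 for basement membrane, -0.040 for adhesive proteins and -0.044 for receptors.

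Slopes that changed sign, none of them called, were COL5A1 without the liver-high arrays (-0.000256 per wk) and over omissions (-2.52e-05 to 0.0271), COL6A3 with names as given (0.0108), with the replicate block (0.00439) and over omissions (-0.0254 to 0.0253), POSTN turned (-0.00371) and with names as given (-0.0184), FN1 turned (-0.00943), and LUM turned (-0.00268) and with names as given (-0.0162). Orientation terms that changed sign were COL6A3 with names as given (0.45), and LUM with names as given (0.15) and over omissions (-0.11 to 0.013). The cause of these changes was not tested, but names as given belong to other spots.

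With the replicate block, the 4 replicate numbers took the place of the orientation term, and 0 features were called in the mean over ages and 186 at single ages. The numbers stand for different birds, per the design text. Arrays of 1 number at different ages correlated at a mean residual r of -0.062 over 60 pairs. Arrays of another number in the same dye orientation correlated at -0.09 over 60 pairs. By the mean residual r, 0 of 24 arrays were closest to their own number. Taking out the age and orientation terms pushes residuals of arrays in the same orientation apart. These values therefore cannot show whether the number pairs arrays. With no intensities, what signal over background limits is unknown.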
